A study of Mus musculus and Rattus norvegicus with 28 samples.

Results

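The core cardiac transcription factors are 10 genes whose protein products, alone and in complexes, switch on the genes of heart muscle: Gata4, Gata6, Nkx2-5, Tbx5, Tbx20, Hand1, Hand2, Isl1, Srf and Myocd. They were picked by gene name among the 55450 genes of the mouse tables and the 32623 genes of the rat tables, and the rule used none of their values. All 10 were found in both species. For chromatin, the set comprised the 85 regions of accessible DNA, of 63439 in the mouse lists, whose midpoint lay within 50 kb of a transcript start of one of the 10 genes.

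The study followed cardiomyocytes across birth. Wild-type C57BL/6 mice gave left ventricular cells on embryonic day 18.5 (E18.5, late fetal) and on postnatal days 1, 3 and 7 (P1, P3 and P7, neonatal), with 2 RNA-seq and 2 ATAC-seq libraries at each time point. ATAC-seq marks open chromatin as peaks of transposase insertion. Sprague Dawley rats gave left ventricular cells on postnatal day 1, which were plated and, a day later, given either DMSO (control) or 100 nM trichostatin A (TSA), an inhibitor of histone deacetylases, with 3 RNA-seq libraries for each treatment. No group carried a transgene or a deletion. Cells were freed with trypsin and collagenase and left to settle briefly so that fast-adhering cells could be discarded, so other heart cells that stayed in suspension could remain in a library. The study calls its libraries biological replicates, but nothing ties a library to separate animals or cultures, so the p-values below measure only the spread between these libraries.

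GATA4 and GATA6 are zinc finger proteins that bind GATA motifs, NKX2-5 is a homeodomain protein, TBX5 and TBX20 are T-box proteins, and HAND1 and HAND2 are basic helix-loop-helix proteins with left and right ventricular roles in the embryo. SRF binds the CArG box in genes of muscle and of growth response, and myocardin, the product of Myocd, is a coactivator that acts through SRF. ISL1 marks the second heart field progenitors of the embryo and is switched off as they differentiate into ventricular muscle.

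Values are FPKM, which corrects for transcript length and sequencing depth, summed over the transcripts of a gene, so that levels can be compared between genes. Each library held 29.3 to 37.5 M aligned reads in mouse and 28.2 to 38.5 M in rat. Markers of the labelled cell type and of other cell types differed in level across the libraries. The summed FPKM of 16 cardiomyocyte markers was 32112 and 40869 for E18.5, 15194 and 24425 for P1, 10209 and 8844 for P3, and 2595 and 1090 for P7, and none of the 16 was listed at 0 in a library. The summed FPKM of 12 fibroblast markers was 583 and 568 at E18.5 and 3819 and 4677 at P7, and that of 8 erythroid markers was 29046 and 35395 at E18.5 and 11 and 12 at P7. In rat, the libraries numbered 3 of both treatments stood apart from the others of their group, with Spearman correlations of 0.951 to 0.965 against 0.985 and 0.986 between numbers 1 and 2, so rat results are given with and without them.

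Promoter letters are shown for 4 members whose start sites differed in how often a peak was called, which is described further on. They are the 250 bases before the RefSeq start on GRCm38.p6 (mm10), read 5′ to 3′ on the strand of the gene, with matches to the searched motifs in capitals. The Srf promoter (chr17:46556163-46556412, minus strand) held 2 CArG boxes, which begin 82 and 62 bases before the start, and the Hand2 promoter (chr8:57320733-57320982, plus strand) held 1 match to the GATA motif AGATAA on the opposite strand, which begins 172 bases before the start. The Nkx2-5 promoter (chr17:26841566-26841815, minus strand) and the Tbx20 promoter (chr9:24774304-24774553, minus strand) held none of the 6 motifs and have no capitals.
Srf: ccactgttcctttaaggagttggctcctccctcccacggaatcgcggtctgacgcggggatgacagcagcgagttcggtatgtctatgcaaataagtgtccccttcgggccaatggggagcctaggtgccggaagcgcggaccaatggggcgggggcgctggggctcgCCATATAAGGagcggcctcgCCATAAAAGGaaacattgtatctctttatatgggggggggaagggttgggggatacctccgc
Hand2: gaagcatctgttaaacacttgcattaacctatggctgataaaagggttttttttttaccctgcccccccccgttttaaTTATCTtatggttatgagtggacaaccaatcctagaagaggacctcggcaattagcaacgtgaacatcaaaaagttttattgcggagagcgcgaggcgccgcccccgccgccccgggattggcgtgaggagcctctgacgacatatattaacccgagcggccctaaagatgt
Nkx2-5: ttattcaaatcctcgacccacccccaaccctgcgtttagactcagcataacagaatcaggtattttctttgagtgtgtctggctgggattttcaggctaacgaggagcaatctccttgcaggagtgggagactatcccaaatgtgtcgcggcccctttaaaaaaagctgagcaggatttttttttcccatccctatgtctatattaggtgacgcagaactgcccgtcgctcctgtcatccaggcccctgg
Tbx20: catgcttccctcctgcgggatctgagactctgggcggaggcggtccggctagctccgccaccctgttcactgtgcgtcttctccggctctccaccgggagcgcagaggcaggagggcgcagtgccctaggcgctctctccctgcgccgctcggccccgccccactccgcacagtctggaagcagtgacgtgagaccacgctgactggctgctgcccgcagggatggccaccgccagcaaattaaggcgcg

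Of the 9 members that could be tested in mouse, 6 fell from E18.5 to P7 and none rose. On the log2(FPKM + 1) scale Nkx2-5 fell most, from a mean of 101 FPKM to 9.41, followed by Hand1, Myocd, Tbx5, Gata6 and Srf, whereas Tbx20 and Hand2 were higher at P1 than at E18.5 and back near the E18.5 level by P7. Over the 13979 genes tested, 55.2% passed in either direction, 22.6% lower and 32.6% higher at P7. The median log2 difference was -0.80 over the 9 members and 0.14 over all genes tested. Isl1 was measured at under 1 FPKM everywhere and was not tested, and Hand1 passed the filter on low values through its E18.5 libraries and 1 P1 library, so these shares are not read as a property of the whole set. Unless another test is named, tests are limma fits on log2(FPKM + 1) with Benjamini-Hochberg adjustment over all genes tested. A difference on that scale understates the change of a low gene, and in plain FPKM the order of the first 2 turned, with a P7 mean that was 0.0255 of the E18.5 mean for Hand1 and 0.0933 for Nkx2-5.

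**Figure D1:**
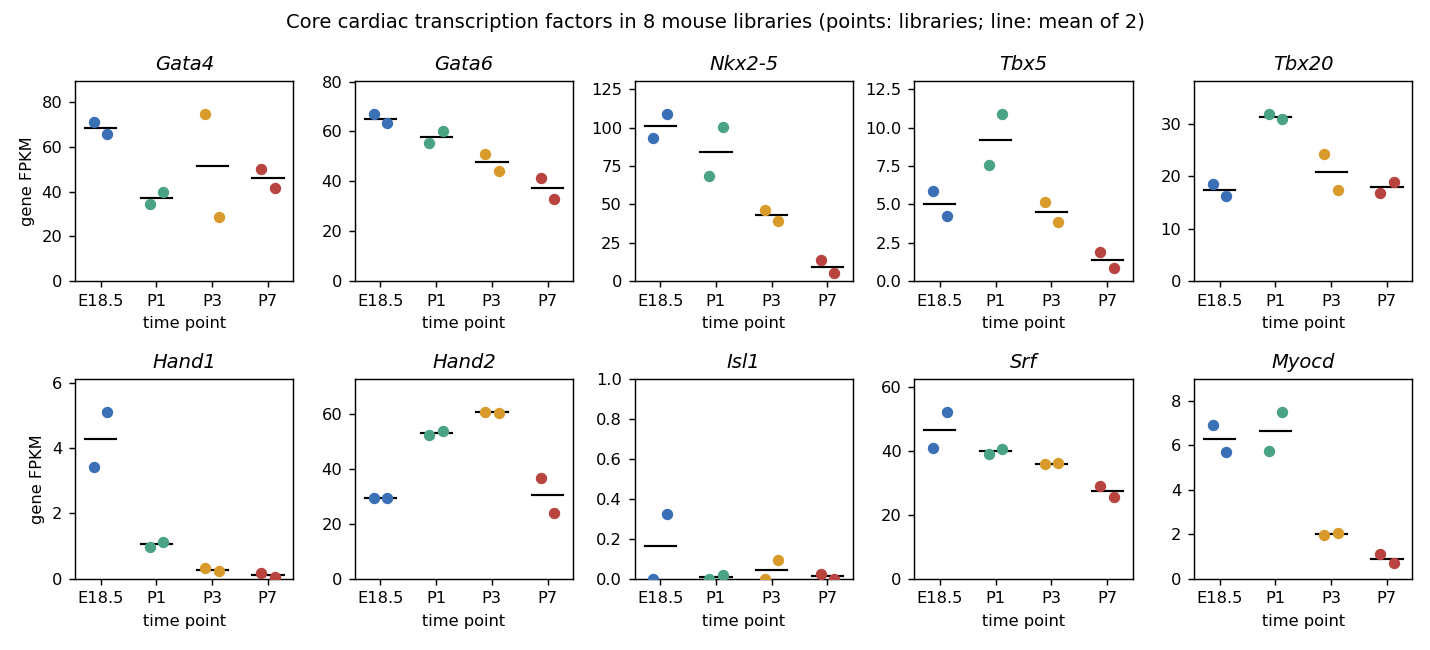
Gene FPKM (y axis, from 0, a separate scale for each gene) of the 10 core cardiac transcription factors in the 8 mouse RNA-seq libraries by time point (x axis). Points are libraries and lines are means of 2. Nkx2-5 goes from 93.1 and 109 FPKM at E18.5 to 13.6 and 5.23 at P7, Hand2 is highest at P3 with 60.9 and 60.7, and Isl1 stays at or under 0.326.

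Nkx2-5 (chr17:26838664-26845009, minus strand, mm10 as for all positions given) was the most abundant member at E18.5. Its FPKM was 93.1 and 109 for E18.5, 68.6 and 100.1 for P1, 46.5 and 39.0 for P3, and 13.6 and 5.23 for P7. The E18.5 and P1 libraries overlapped, all P3 libraries lay below them, and both P7 libraries lay below those. Against E18.5, Nkx2-5 did not pass at P1 (log2FC -0.28, SE 0.36, limma adjusted p = 0.569), was lower at P3 (-1.22, adjusted p = 0.0231) and was lower at P7 (-3.41, SE 0.36, 95% interval -4.24 to -2.58, adjusted p = 0.000133), a 10.7-fold difference in FPKM + 1. Between P3 and P7 it fell by 2.19 (limma adjusted p = 0.0155). The P3 call against E18.5 was lost when any 1 of the 4 E18.5 and P3 libraries was left out (adjusted p of 0.0572 to 0.113), and the P7 call was not. Cardiomyocyte markers fell over the same libraries, with 16 of 16 passing lower at P7, and in bulk samples fewer cells of a type and less RNA per cell cannot be told apart.

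The GATA members differed in how closely their libraries agreed. Gata6 (chr18:11052064-11085635, plus strand) FPKM was 66.8 and 63.5 for E18.5, 55.6 and 60.2 for P1, 51.1 and 44.3 for P3, and 41.5 and 33.0 for P7. No library of a later time point lay above one of an earlier time point. Gata6 was lower than at E18.5 at P3 (log2FC -0.45, SE 0.15, limma adjusted p = 0.0338) and at P7 (-0.80, SE 0.15, limma adjusted p = 0.00207), where the mean was 37.2 FPKM against 65.2. The P3 call was lost in TPM (-0.20, limma adjusted p = 0.262) and without any 1 of the E18.5 and P3 libraries (adjusted p of 0.0571 to 0.19).

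Gata4 (chr14:63198922-63271692, minus strand), whose product shares target motifs with GATA6, had 71.3 and 65.9 FPKM for E18.5, 34.5 and 39.9 for P1, 74.6 and 28.6 for P3, and 50.1 and 41.8 for P7. The P3 libraries spanned the range of all the others. Gata4 passed in none of the 6 comparisons, and its log2 difference at P7 was -0.57 (SE 0.36, 95% interval -1.41 to 0.26, limma adjusted p = 0.213). Without the first or the second P3 library, which set much of that spread, the same difference passed, with adjusted p of 0.0164 and 0.0161.

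The Gata4 sum also mixed transcripts. Transcript ENSMUST00000118022.7 held 57.2% of the summed FPKM over the 8 libraries, and its share was 65.2% and 65.5% for E18.5, 40.9% and 36.8% for P1, 66.3% and 35.5% for P3, and 56.4% and 62.4% for P7. The 653-base ENSMUST00000132122.1, which starts at the far upstream end of the gene, held 12.3% over all libraries, with 24.8% and 23.4% at P1 and 22.9% in the second P3 library. The 3 libraries with the lowest Gata4 totals were thus also those with the lowest share of the leading transcript. StringTie estimates such splits from shared reads, so they are less certain than the sum.

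Of the T-box members, Tbx5 and Tbx20 had different courses. Tbx5 (chr5:119832668-119885219, plus strand), a partner of NKX2-5 and GATA4 at cardiac promoters, had 5.86 and 4.24 FPKM for E18.5, 7.57 and 10.9 for P1, 5.13 and 3.86 for P3, and 1.87 and 0.854 for P7. The P7 libraries lay below all the others and the P1 libraries above them. Tbx5 was lower at P7 than at E18.5 (log2FC -1.38, SE 0.27, limma adjusted p = 0.00331), than at P1 (-2.13, adjusted p = 0.00187) and than at P3 (-1.24, adjusted p = 0.0418), and its P1 value of 0.75 against E18.5 did not pass (adjusted p = 0.0588). The call from P3 to P7 was lost without either E18.5 library, either P3 library or the second P7 library (limma adjusted p of 0.0546 to 0.286).

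Tbx20 (chr9:24718138-24774303, minus strand), a T-box factor with both activating and repressing roles in the ventricle, had 18.5 and 16.2 FPKM for E18.5, 31.8 and 30.9 for P1, 24.1 and 17.4 for P3, and 16.8 and 18.9 for P7. Both P1 libraries were above all other libraries, and the remaining 3 time points overlapped. Tbx20 rose by 0.82 from E18.5 to P1 (SE 0.17, limma adjusted p = 0.00652) and fell by 0.78 from P1 to P7 (limma adjusted p = 0.0162). The P7 difference from E18.5 was 0.04, with a 95% interval of -0.35 to 0.43 (limma adjusted p = 0.845), and its sign turned with size-factor scaling (-0.13).

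The HAND members moved apart. Hand2 FPKM was 29.3 and 29.6 for E18.5, 52.6 and 54.0 for P1, 60.9 and 60.7 for P3, and 37.0 and 24.1 for P7. Its P1 and P3 libraries all lay above those of E18.5 and P7. Hand2 rose against E18.5 by 0.83 at P1 (SE 0.18, limma adjusted p = 0.0082) and by 1.02 at P3 (limma adjusted p = 0.00258), and fell by 1.00 from P3 to P7 (limma adjusted p = 0.0216). At P7 it differed from E18.5 by 0.02 (95% interval -0.40 to 0.44, limma adjusted p = 0.935), a value whose sign turned with size-factor scaling (-0.16).

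Hand1 (chr11:57828705-57832818, minus strand) FPKM was 3.42 and 5.10 for E18.5, 0.976 and 1.13 for P1, 0.323 and 0.223 for P3, and 0.173 and 0.0439 for P7. Its libraries fell in 4 groups without overlap. Hand1 was lower than at E18.5 at P1 (log2FC -1.34, SE 0.19, limma adjusted p = 0.00135), at P3 (-2.03, adjusted p = 0.00015) and at P7 (-2.23, limma adjusted p = 5.52e-05). Hand1 passed the filter on low values only through E18.5 and 1 P1 library, and all its P3 and P7 values were under 1 FPKM, so that it had to be lower there, and its place in the counts of members lower at P3 and P7 supports nothing. Of the 9 members tested it alone was lower at P1, where 14.4% of all genes tested were. Its P1 values of 0.976 and 1.13 lay at the filter limit of 1 FPKM. The E18.5 libraries alone were enough to let Hand1 in, so its P1 count is not read as support either. Erythroid markers also fell by P1, with 7 of 7 tested passing lower, and their part in the Hand1 result was not tested.

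The Hand2 locus shares bases with a long noncoding gene on the other strand. Hand2os1 (chr8:57281117-57324233, minus strand) overlaps the Hand2 gene (chr8:57320983-57324633, plus strand) by 3251 bases. The sources used here do not say that strand was kept, so reads of the pair that fall within the overlap may be mixed. Hand2os1 FPKM was 32.7 and 47.3 for E18.5, 25.9 and 35.9 for P1, 23.3 and 25.7 for P3, and 12.1 and 9.32 for P7. It was lower at P7 than at E18.5 (log2FC -1.79, limma adjusted p = 0.000312), and the difference between this change and that of Hand2 was not tested.

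Isl1 (chr13:116298281-116309689, minus strand), the progenitor factor, was at or near 0. It was listed at 0 FPKM in 4 of the 8 mouse libraries and at 0.0212 to 0.326 in the others, at most 15 estimated reads in a library. No fold or test is given.

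SRF and its coactivator both fell at the RNA level. Srf (chr17:46548329-46556175, minus strand) FPKM was 40.8 and 52.1 for E18.5, 38.9 and 40.7 for P1, 35.8 and 36.3 for P3, and 29.1 and 25.6 for P7. Both P7 libraries were below all others. Srf was lower at P7 than at E18.5 (log2FC -0.73, SE 0.15, limma adjusted p = 0.00325), and the values at P1 (-0.21) and P3 (-0.35) did not pass. Srf is itself among the genes that SRF switches on.

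Myocd (chr11:65176561-65269989, minus strand) FPKM was 6.91 and 5.71 for E18.5, 5.77 and 7.50 for P1, 1.97 and 2.08 for P3, and 1.10 and 0.701 for P7. The E18.5 and P1 libraries overlapped, and every later library was well below them. Against E18.5, Myocd did not pass at P1 (log2FC 0.06, limma adjusted p = 0.83) and was lower at P3 (-1.27, SE 0.19, limma adjusted p = 0.00115) and at P7 (-1.95, adjusted p = 9.57e-05). The transcript that spans the whole gene took a smaller share of the sum at P7, where the sum rested on 119 and 66 estimated reads. StringTie estimates such shares from shared reads, so at this level they are uncertain. Transcript ENSMUST00000108695.8 held 53.2% and 55.5% of the Myocd sum for E18.5, 57.9% and 60.7% for P1, 36.4% and 47.1% for P3, and 6.47% and 6.89% for P7, while the 3517-base ENSMUST00000151483.1 from inside the gene held 45.4% and 42.9% at P7.

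**Figure D2:**
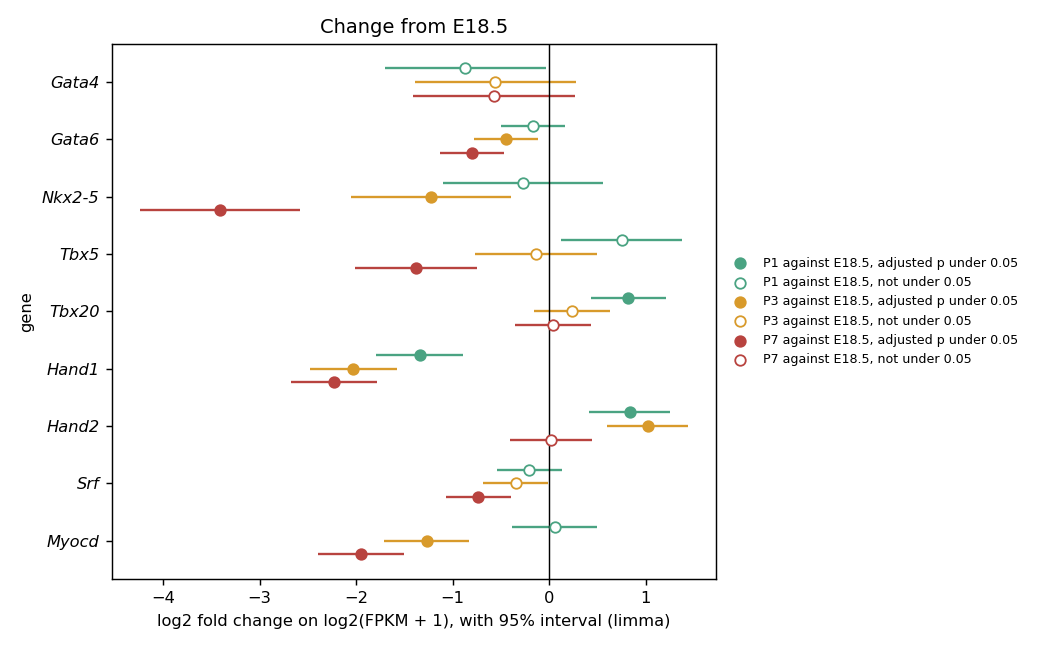
Log2 fold change on log2(FPKM + 1) against E18.5 (x axis) for the 9 members tested (y axis), with 95% intervals from limma. Filled points passed at an adjusted p under 0.05. Nkx2-5 at P7 lies farthest left at -3.41, Hand2 at P3 farthest right at 1.02, and the Tbx20 and Hand2 intervals at P7 span 0.

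Across the 6 comparisons of time points the number of members that passed was uneven, as it was for all genes. At P1 against E18.5, 3 of 9 members passed, 2 higher and 1 lower, beside 41.3% of all genes, 26.9% higher and 14.4% lower. At P3 against E18.5 the count was 5 of 9, 1 higher and 4 lower, beside 48.9% of all genes, 31% higher and 17.9% lower, and at P7 it was 6 of 9, beside 55.2%. From P1 to P3 no member passed the limma test, limma-voom on reads estimated from coverage also called 0, and 0.0143% of all genes passed. From P1 to P7, 8 of 9 members fell, all but Gata4, beside 18.2% of all genes in either direction and 10% lower. From P3 to P7, Nkx2-5, Tbx5 and Hand2 fell, which is 3 of 9 beside 5.13% of all genes, 3.06% lower. The comparisons share libraries at their common time points. The P1 to P7 count depended on single libraries, being 5 without the first P1 or first P7 library and 3 without the second P1 or second P7 library, and the P3 to P7 count was 0 without either P3 library and 1 without the second P7 library.

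The order of levels changed with these courses. At E18.5 the mean FPKM ran from Nkx2-5 (101 ± 10.9, SD, n = 2) through Gata4 (68.6 ± 3.77), Gata6 (65.2 ± 2.34), Srf (46.5 ± 8.03), Hand2 (29.5 ± 0.177) and Tbx20 (17.3 ± 1.62) to Myocd (6.31 ± 0.851), Tbx5 (5.05 ± 1.15) and Hand1 (4.26 ± 1.2). The libraries of Gata4 and Gata6 overlapped, as did those of Myocd and Tbx5 and of Tbx5 and Hand1. At P7, Gata4 came first (46.0 ± 5.85), then Gata6 (37.2 ± 6.02), Hand2 (30.5 ± 9.10), Srf (27.4 ± 2.46), Tbx20 (17.9 ± 1.5) and Nkx2-5 in sixth place (9.41 ± 5.91), with Tbx5, Myocd and Hand1 at 1.36, 0.898 and 0.109. Gata6 and Hand2, Hand2 and Srf, and Tbx5 and Myocd overlapped.

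Pattern likeness was described by Pearson's r of log2(FPKM + 1) over the 8 libraries. These differ in time point and in the levels of cell type markers, and the part of either in r was not tested. The nearest genes to Nkx2-5 were Smyd1 (0.999), a muscle methyltransferase, Tnnt2 (0.997), cardiac troponin T, and Trim55 (0.997). Gata6 was nearest to Hopx (0.987), a homeodomain-only cardiac factor, followed by Neto2 (0.986) and Ciapin1 (0.986). The genes nearest to Myocd were Gm16793 (0.993), D830024N08Rik (0.987) and Sorbs2 (0.982), and those nearest to Srf were Mrrf (0.996), Mrpl34 (0.995) and Ptcd2 (0.993). Tbx5 was nearest to Ehd4 (0.993), Atp8a1 (0.986) and Tom1l2 (0.986), and Hand1 to Zkscan5 (0.995), Gstm7 (0.992) and Rabggtb (0.991). Hand2 was nearest to St3gal5 (0.989), Gpd1 (0.983) and Prkab1 (0.973), Tbx20 to Tgfb2 (0.932), Hdhd2 (0.932) and Smad9 (0.927), and Gata4 to 9430038I01Rik (0.928) and Sub1 (0.924). Among members the closest pair was Gata6 and Nkx2-5 (0.966), while Gata4 ran from -0.36 to 0.49 with the others.

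Partners and relatives of the members moved both ways from E18.5 to P7, as did all genes tested, of which 32.6% rose and 22.6% fell. Of 29 listed, 26 were tested from E18.5 to P7, of which 14 fell and 5 rose, with a median of -0.83. The largest falls were of Hopx (-4.39), the ventricular homeobox gene Irx4 (-3.67) and Smyd1 (-3.40). The rises were of Tcf21 (2.83), a fibroblast and epicardial factor that is also on the fibroblast marker list, Mrtfa (1.22), Tbx18 (0.72), Heyl (0.66) and Tbx2 (0.42). The MEF2 genes Mef2c (-1.4), Mef2d (-1.12) and Mef2a (-0.90) fell, as did Tbx3 (-0.77, limma adjusted p = 0.0483). Mrtfa, which like myocardin is a coactivator of SRF, had 5.10 and 3.93 FPKM at E18.5 and 11.7 and 11.8 at P7, the opposite course to Myocd, and its relative Mrtfb gave 0.02 (limma adjusted p = 0.95). Gata5, another cardiac GATA gene, had 0.72 and 0.763 FPKM for E18.5, 3.09 and 4.66 for P1, 3.43 and 1.93 for P3, and 2.3 and 1.07 for P7, a difference of 0.59 at P7 that did not pass (limma adjusted p = 0.122), and the GATA cofactor gene Zfpm2 gave 0.16 (limma adjusted p = 0.603).

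Most listed genes that these factors are known to bind and switch on were also lower at P7 than at E18.5. Over all genes tested, 22.6% were lower and 32.6% higher. The part of the factors in these falls was not tested. Of 30 cardiac target genes, 28 were lower at P7 and none higher, with a median of -3.84, and Gja5 (-0.56) and Ankrd1 (-0.35) did not pass. The largest falls were of Ckm, muscle creatine kinase (-8.28), Myh7, the fetal myosin heavy chain (-7.98), and Tnni1, fetal troponin I (-6.34). Many of these genes are also on the cardiomyocyte marker list, so the falls of the list and of the marker sum are not separate measurements.

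Both lists of SRF targets held rises and falls from E18.5 to P7, where 32.6% of all genes tested rose and 22.6% fell. Of 15 smooth muscle and cytoskeletal targets of SRF and myocardin, 8 rose and 5 fell, with a median of 1.22. The largest rises were of Tagln (4.55), Lmod1 (2.56) and Cnn2 (2.1), and the largest falls of Acta1, skeletal actin (-4.56), Des, desmin (-3.60), and Tpm1 (-2.14). The 3 that fell most are also made in cardiac muscle. Of 13 growth response targets, which include Srf itself, 3 rose, namely Actb (1.75), Actg1 (1.45) and Ccn2 (0.88), and 6 fell, led by Fosb (-4.58), Fos (-4.17) and Egr1 (-1.74), with a median of -0.12. The summed FPKM of 10 smooth muscle and pericyte markers was 431 and 560 at E18.5 and 1671 and 1879 at P7, though 5 of them passed higher and 4 lower. Acta2, Tagln, Cnn1 and Myh11 are on both this list and that of smooth muscle targets, so the sum is not a separate measurement. The part of these markers in the changes was not tested.

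Scaling shifted the level of all genes. The median log2 difference at P7 was 0.14 as deposited, -0.01 with size factors and 0.40 in TPM, and of the genes that passed with a log2 difference above 1 in size, 55.7%, 45.5% and 68.1% were higher. The 6 members lower at P7 passed under every scaling, and the sign of Tbx20 and Hand2 turned as given above.

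Open chromatin regions lay near every member, and the peak lists they come from differed in length. The lists held 13149 and 14910 peaks for E18.5, 29281 and 19753 for P1, 95257 and 52040 for P3, and 49113 and 35898 for P7. The 85 regions were 20 near Gata4, 12 near Myocd, 11 each near Gata6 and Nkx2-5, 10 near Hand2, 9 near Srf, 4 each near Tbx20 and Hand1, 3 near Tbx5 and 1 near Isl1. The median over the members was 9.5 regions, beside 7 over the 12468 tested coding genes. Of the 85, 15 were promoter regions, within 2.5 kb of a start. By position, 28 lay upstream, 26 downstream, 18 in introns and 13 over exons, and 13 lay near the start of another coding gene, among them Fdft1, Neil2, Sap30l, Cul9, Ptk7 and Arhgap44. Of the 85, 8 held a peak in all 8 libraries and 66 held none at E18.5, where the lists were the shortest. The same shares over all regions are not given here, so these counts are not read as a trait of the members.

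**Figure D3:**
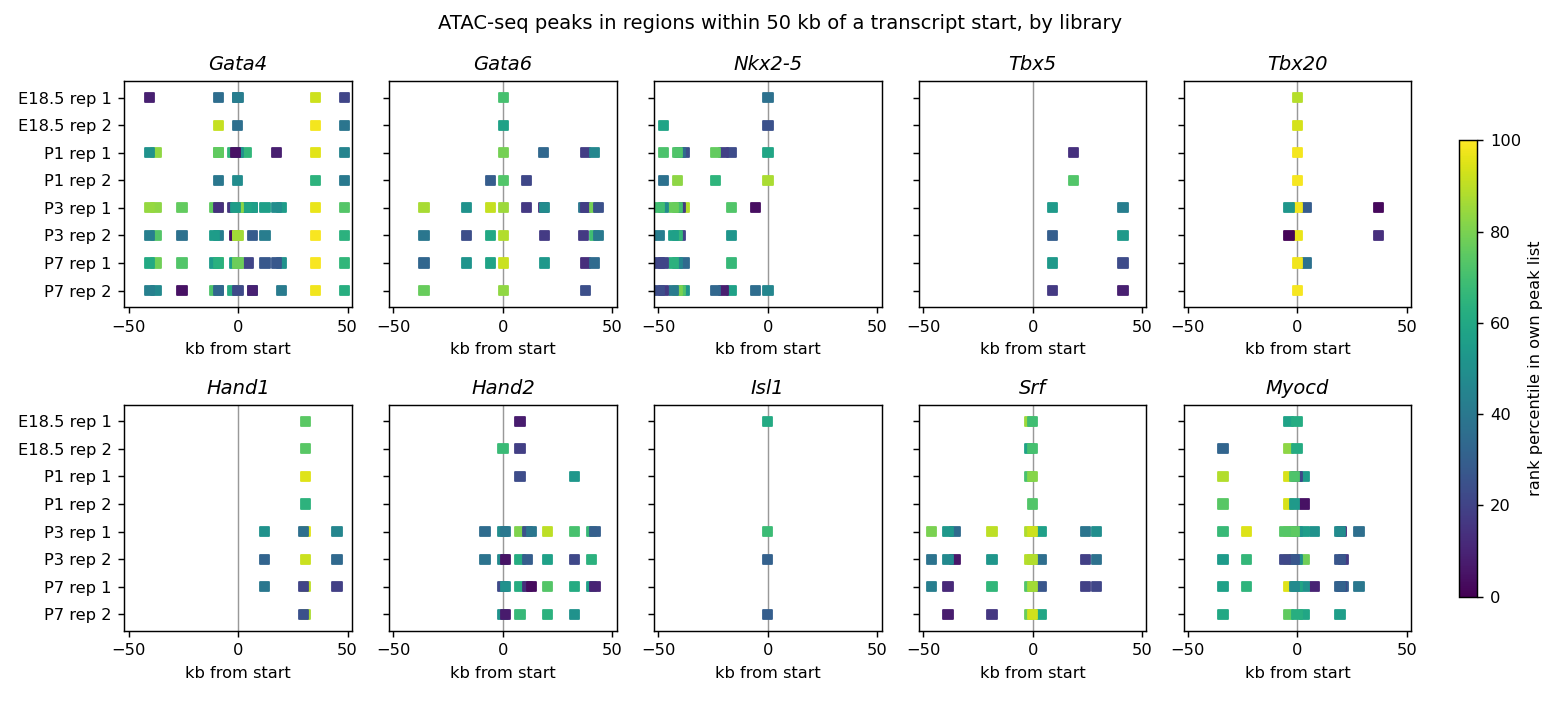
Regions with an ATAC-seq peak within 50 kb of a transcript start of each member (x axis, kb from the nearest start of the gene) in each of the 8 libraries (y axis), coloured by the rank of the peak in its own list (100 is the highest). Peaks at the start of Tbx20 and Srf appear in every row, that of Nkx2-5 is missing in both P3 rows, and distal peaks fill in at P3 and P7.

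Most member regions that changed were gained after birth in the lists as deposited. Gained means a peak in both libraries of the later time point and in none of the earlier one, and lost means the opposite. From E18.5 to P1, 5 of 85 were gained and none lost, beside 6.16% and 1.47% of all regions. From E18.5 to P3, 43 were gained and 1 lost, which is 50.6% and 1.2% beside 55.9% and 0.186%, and from E18.5 to P7, 23 were gained and none lost, 27.1% and 0% beside 23.4% and 0.158%. The members' shares of gained regions were thus near those of all regions. Cutting every list to its 13149 highest peaks left 23 member regions. Among these, losses outnumbered gains from E18.5 to P3 and to P7 but not to P1, and over all regions gains still outnumbered losses at P3 and P7. There were 3 gained and 2 lost from E18.5 to P1, beside 6.36% and 11.5% of all 19625 regions, 0 gained and 5 lost from E18.5 to P3, beside 17.7% and 10.8%, and 0 gained and 4 lost from E18.5 to P7, beside 9.2% and 5.48%. No read counts were used, so presence or absence of a peak cannot be separated from the length of a list.

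The peak at the start of Nkx2-5 was not held in every later list. The peak over its first exon (chr17:26841233-26841687, region midpoint 105 bp into the transcript) had a fold enrichment of 4.72 and 4.48 at E18.5, 5.67 and 6.08 at P1, and 4.08 in the second P7 library. It was absent from the first P7 library and from both P3 lists, the longest of all, and was the 1 member region lost from E18.5 to P3. From P1 to P3, 3 of the 85 were lost (3.53% beside 3.75% of all regions), which were this region, the Nkx2-5 region at -23932 bp and an intronic region of Tbx5 (chr5:119854703-119854955) that held a peak in both P1 libraries alone. Over the 12468 tested coding genes, 4 (0.0321%) had a promoter peak in all 4 E18.5 and P1 lists and in neither P3 list, a pattern singled out after its values were seen. With lists of equal length the peak stood in the 4 E18.5 and P1 lists and in none of the 4 later ones, as did a promoter peak of Myocd at one or the other of its promoter regions, a pattern held by 0.257% of tested coding genes. The end of the Nkx2-5 letters printed above, nearest the start, lies within this region.

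The course of the distal Nkx2-5 regions depended on the length of the lists. As deposited, 5 of the 10 regions over 2.5 kb from a start were gained from E18.5 to P3 and 5 from E18.5 to P7, none was lost, and from P1 to P3, 2 were gained and 1 lost. A region at -41271 bp from the nearest start (chr17:26886116-26886444) held no peak at E18.5 and a peak in all 6 later libraries, with fold enrichments of 5.88 and 5.43 for P1, 4.82 and 5.73 for P3, and 3.81 and 5.18 for P7. Another, at -43112 bp (chr17:26887891-26888352), held a peak only in the 4 P3 and P7 libraries. Within 50 kb of Nkx2-5 the lists held 1 and 2 regions for E18.5, 8 and 4 for P1, 8 and 5 for P3, and 6 and 11 for P7, while its FPKM fell. With lists of equal length, 3 distal regions were left, none was gained from E18.5 to P3 or P7, 2 were gained from E18.5 to P1, among them the first one described, and all 3 were lost from P1 to P3, as the peak at the start was.

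The promoter peaks of Tbx20 and Srf were present throughout. The Tbx20 peak (chr9:24773951-24774867) had fold enrichments of 7.59 and 8.10 for E18.5, 10.9 and 9.37 for P1, 6.26 and 8.32 for P3, and 6.70 and 7.59 for P7, and ranked above 89% to 98.6% of its list. The Srf peak (chr17:46555876-46556657), over the 2 CArG boxes shown, had 6.06 and 5.21 for E18.5, 6.10 and 4.64 for P1, 5.93 and 6.46 for P3, and 4.90 and 5.32 for P7. Both stayed in all 8 lists of equal length, as did the promoter peaks of 24% of tested coding genes. Srf RNA passed as lower at P7, and the Tbx20 difference did not pass.

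The other promoters were held less evenly. Gata4, Gata6 and Myocd had a promoter peak in all 8 libraries as deposited, and in 6, 7 and 4 at equal length. Hand2 (chr8:57320761-57321175 and a second region) had one in 5, namely the second E18.5 library and all P3 and P7 libraries, and in 1 at equal length. Isl1 (chr13:116309471-116310194), whose RNA was near 0, had one in 4, the first E18.5, both P3 and the second P7 library. Tbx5 had one in the first P3 library alone, and Hand1 in none. Per library, 7, 7, 6, 6, 8, 7, 6 and 8 members had a promoter peak in order of time point and replicate, beside 71.4%, 66.5%, 73.2%, 45.4%, 96.2%, 92.6%, 91.3% and 90.5% of tested coding genes.

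An intronic region of Myocd (chr11:65209346-65210090) at -4251 bp from an internal start held a peak in all 8 libraries under both list lengths. Its fold enrichment was 6.18 and 7.10 for E18.5, 9.03 and 7.10 for P1, 9.05 and 11.1 for P3, and 8.64 and 5.58 for P7. The region at the first Myocd start (chr11:65269759-65270593), where ENSMUST00000108695.8 begins, held a peak in 7 libraries as deposited and at equal length in both E18.5 libraries only.

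Motif letters are given as a description, with no test. The 300 bases at the centre of each region held AGATAA on either strand in 9 of the 85 (10.6%, beside 12.4% of all 63285 regions searched), TNAAGTG, the NKX2-5 motif, in 10 (11.8% beside 11.8%), AGGTGTG, the T-box motif, in 3 (3.53% beside 4.15%), the CArG box in 2 (2.35% beside 1.52%), the MEF2 box in 1 (1.2% beside 3.04%) and TGANTCA, the AP1 motif, in 15 (17.6% beside 24.5%). Among 32851 RefSeq promoters 1.63% held a CArG box and 11.2% held AGATAA. A match is letters only and shows no binding.

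In rat ventricular cells no member passed between TSA and control, beside 3.78% of the 13625 genes tested. Of 9 tested, 2 had groups that did not overlap, Hand1 (higher in TSA) and Srf (lower in TSA). Over all genes tested, 17.1% were higher and 10.1% lower in TSA without overlap of the groups, so this count is not read as a result about the members.

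Hand1 FPKM was 6.0, 5.42 and 4.78 in control and 7.71, 9.25 and 7.86 with TSA. Every TSA library was above every control library, and the log2 difference was 0.54 (SE 0.13, 95% interval 0.22 to 0.85, limma adjusted p = 0.0795). Srf FPKM was 47.8, 52.6 and 52.8 in control and 42.2, 39.7 and 45.1 with TSA, all lower, with a difference of -0.27 (SE 0.095, limma adjusted p = 0.183). For both, the exact permutation test over the 6 libraries gave a two-sided p of 0.1, the smallest it can give.

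Hand2 and Tbx20 depended on how the libraries were joined. Hand2 FPKM was 29.9, 30.0 and 17.4 in control and 43.3, 42.9 and 25.8 with TSA. TSA was higher in 3 of 3 pairs of the same number, but the third TSA library lay below 2 controls. The difference was 0.52 (SE 0.28, limma adjusted p = 0.367), and with the replicate number as a block it was 0.52 with an adjusted p of 0.0385. The labels do not say that libraries of the same number were paired. Tbx20 FPKM was 161, 165 and 137 in control and 215, 244 and 145 with TSA (0.35, limma adjusted p = 0.399). Without both libraries numbered 3, left out after the data were seen, Hand1 (0.49, limma adjusted p = 0.0453), Tbx20 (0.49, adjusted p = 0.0122) and Hand2 (0.51, adjusted p = 0.00603) passed. The share of all genes that passed in this setting is not given, so the count is not read as a result about the members. Of all genes, those that passed with a log2 difference above 1 in size were 231 higher and 163 lower, beside 247 and 43 with all libraries.

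The remaining members gave small differences. Nkx2-5 had 161, 163 and 162 FPKM in control and 177, 163 and 148 with TSA, a difference of -0.0014 with a 95% interval of -0.23 to 0.23. Tbx5 had 8.97, 9.78 and 5.82 in control and 7.45, 7.39 and 4.65 with TSA, lower in 3 of 3 pairs (-0.29, limma adjusted p = 0.56). Gata4 ranged from 97.7 to 129 in control and from 111 to 118 with TSA, and Gata6 from 44.4 to 65 and from 51.2 to 69.4. Myocd had 12.4, 12.4 and 22.5 in control and 12.8, 13.8 and 17.2 with TSA, highest in the libraries numbered 3, which also had the highest summed smooth muscle and pericyte markers, 2411 and 1643 FPKM against 678 to 994. Isl1 was between 0.0457 and 0.227 FPKM, 4 to 16 estimated reads.

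**Figure D4:**
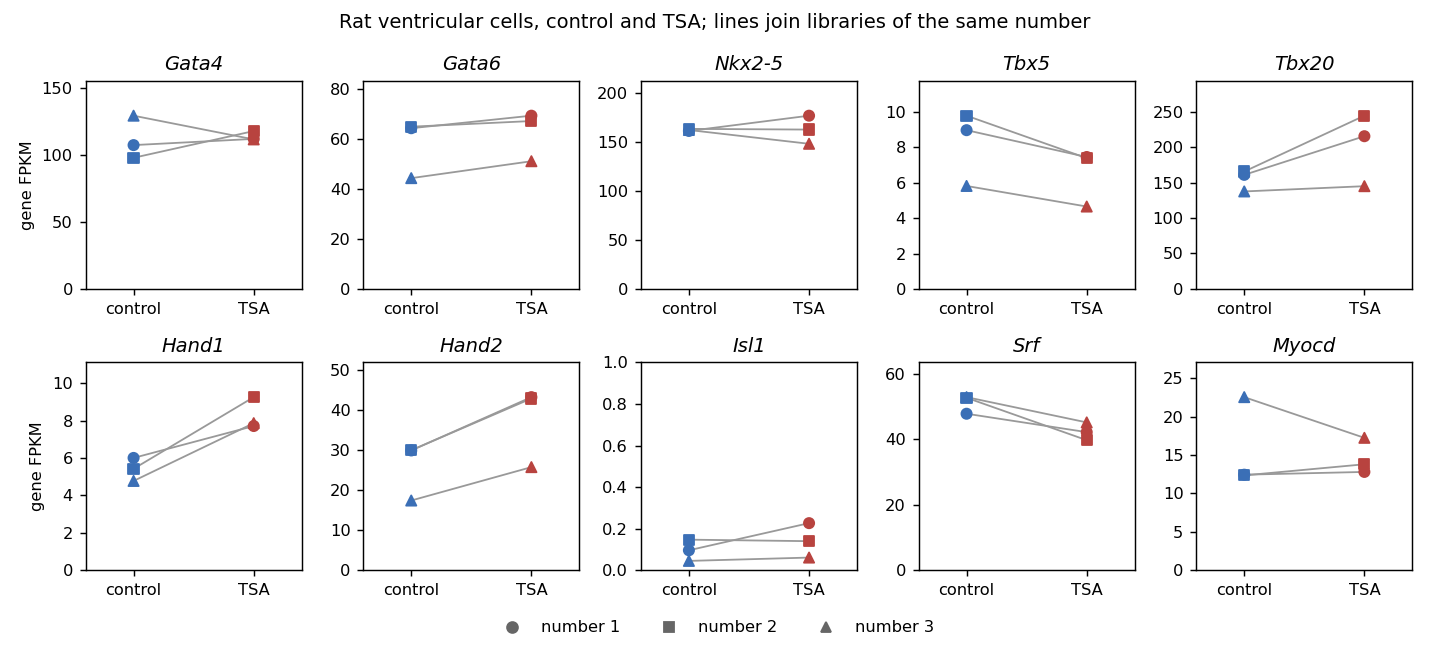
Gene FPKM (y axis, from 0, a separate scale for each gene) of the 10 members in rat control and TSA libraries (x axis), with lines joining libraries of the same number. Hand1 rises and Srf falls along all 3 lines with no overlap of the groups, Hand2 rises along all 3 with overlap, and the triangles (number 3) sit apart for Gata6, Tbx5, Hand2 and Myocd.

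The order of levels in cultured rat cells differed from that in mouse. In control, Nkx2-5 (162 ± 1.07 FPKM, SD, n = 3) overlapped Tbx20 (155 ± 15), followed by Gata4 (111 ± 16.1), Gata6 (57.9 ± 11.7), Srf (51.1 ± 2.87), Hand2 (25.8 ± 7.23), Myocd (15.8 ± 5.85), Tbx5 (8.19 ± 2.1) and Hand1 (5.4 ± 0.615). Gata6 and Srf, Hand2 and Myocd, and Tbx5 and Hand1 overlapped. Tbx20 stood in second place here and in sixth place in mouse at E18.5, tables that were normalised apart, in other species and after culture, so the levels were not tested against each other. The leading Tbx20 transcript was 1805 bases long in rat and 9091 in mouse. FPKM divides by this length, and its part in the order was not tested.

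Of the related lists in rat, 1 gene passed. None of 23 partners and relatives, 15 smooth muscle targets or 12 growth response targets passed, and of 29 cardiac target genes Myl7, the atrial myosin light chain, rose by 1.44 (limma adjusted p = 0.0399), with 97.1, 92.5 and 46.7 FPKM in control and 227, 202 and 189 with TSA. Over all genes 434 were higher and 81 lower. The summed macrophage markers were 1019, 1041 and 495 FPKM in control and 560, 480 and 426 with TSA, the summed fibroblast markers 4439 to 8314 and the summed cardiomyocyte markers 12936 to 25136 over the 6 libraries, and their part in the rat values was not tested.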

How the data were processed

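The 8 mouse RNA-seq libraries, 6 rat RNA-seq libraries and 8 mouse ATAC-seq peak lists were analysed, and the H3K27ac HiChIP samples were not analysed here. The members and gene lists were chosen with earlier results of these data known. The authors aligned RNA reads with HISAT2 2.1.0 and deposited StringTie 1.3.5 (mouse, mm10, GENCODE vM21) and StringTie 1.3.4d (rat, Rnor_6.0) tables of FPKM and TPM per transcript, both normalised by the authors' run, together with coverage, the deposited mean read depth per base. The authors called ATAC-seq peaks per library with MACS2 on mm10, and the deposited lists give a score, the fold enrichment as a ratio, −log10 p and −log10 q.

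Gene FPKM was the sum over transcripts. Genes that reached an FPKM of 1 in 2 or more mouse or 3 or more rat libraries were tested with limma 3.58.1 (lmFit, eBayes with trend) on log2(FPKM + 1), two-sided, all mouse time points in 1 fit, with Benjamini-Hochberg adjustment. A gene passed at an adjusted p under 0.05. The fit was tested on simulated data, in which it recovered 98% of genes changed by 1.5 and 100% of those changed by 3 on the log2 scale in P7 against E18.5. In rat TSA against control these were 95% and 98%. The simulated noise came from the variances of the fit itself, and genes of low or very high level were not changed. Recovery at those levels was therefore not measured. Peaks of all libraries were merged and kept where at least 2 libraries held one. Motifs were searched on both strands, and 5 of 10 members had a RefSeq promoter in the table used. Named genes were all members, the fixed relatives, the 3 largest passed rises and falls of each list, the 3 nearest genes by Pearson's r (1 of them is not reported here), and transcripts with at least 10% of a member's FPKM. Reads estimated from coverage served a voom fit. Rat libraries of the same number deviated together (correlations of 0.224, 0.194 and 0.346), so the pairing by number was taken from this check of the data. Control 2 with TSA 1 (0.167) and control 1 with TSA 2 (0.0904) also correlated. The check therefore sets the libraries numbered 3 apart but does not tell the pairing of numbers 1 and 2. Alternatives covered pseudocount, filter, scaling, samples, replicate block, list length and window.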

Additional observations from a re-analysis of the deposited data

How the results depend on the processing

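The 6 members lower at P7 than at E18.5 passed under every alternative in which they were tested. A mean FPKM of at least 5 left out Hand1 and Myocd, which were therefore not tested under that filter. With only the 2 time points P7 and E18.5 fitted, or without a P3 library, Gata4 passed as well. Counts of members that passed moved elsewhere. From E18.5 to P3, 5 became 3 with no filter on low values and with a mean FPKM of at least 5, and also without the second E18.5 or second P3 library. From P1 to P7, 8 became 3 with no filter, and from P3 to P7, 3 became 0 with no filter or with only these 2 time points. In rat, 0 became 1 with the replicate block and 3 with both libraries numbered 3 left out, a setting chosen after the data were seen. The shares of all genes that passed in these rat settings are not given. In mouse, libraries of the same number gave correlations of -0.0964 to 0.171. With 2 libraries a group the deviations mirror each other, so this check cannot tell whether the numbers were paired. With the block, Srf from P1 to P7 (limma adjusted p = 0.0542) and Tbx5 from P3 to P7 (0.0507) were lost.

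With 1 library left out, the members that passed ranged from 3 to 4 (E18.5 to P1), 3 to 5 (E18.5 to P3), 6 to 7 (E18.5 to P7), 0 to 0 (P1 to P3), 3 to 8 (P1 to P7), 0 to 3 (P3 to P7) and 0 to 0 (rat). Small differences changed sign. With size factors, Tbx20 and Hand2 from E18.5 to P7 gave -0.13 and -0.16, and with 1 library left out they ranged from -0.048 to 0.13 and from -0.28 to 0.32. In rat, with 1 library left out, Gata4 ranged from -0.05 to 0.15, Gata6 from -0.059 to 0.26, Nkx2-5 from -0.064 to 0.063 and Myocd from -0.20 to 0.21. Gata4 gave -0.033 in TPM and -0.0008 with size factors, and with both libraries numbered 3 left out Nkx2-5 gave 0.063 and Myocd 0.093. The cause was not tested.

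The 85 regions became 23 with lists of equal length, 44 with the upper part of each list, 48 within 20 kb and 129 within 100 kb, and ranged from 65 to 85 with 1 list left out. The 52 regions gained or lost in any pair became 10 at equal length and 23 with the upper part (48 to 61 with 1 list left out). At equal length, gained regions went from 5 to 3 at P1, 43 to 0 at P3 and 23 to 0 at P7, and lost regions from 0 to 2, 1 to 5 and 0 to 4. With the upper part, gained regions were 17 at P3 and 10 at P7, and lost regions 1 at P1 and 0 at P3. With 1 list left out, gained regions ranged from 5 to 18 at P1 (18 without the second P1 list), 37 to 55 at P3 and 23 to 47 at P7 (47 without the second P7 list), and lost regions from 0 to 3, 1 to 2 and 0 to 1. Promoter peaks, 55 over members and libraries, became 39 at equal length and 43 with the upper part. Shorter lists hold fewer calls by construction, the rule that both libraries hold a peak eases when 1 is left out, and a wider window takes in more regions. Peak lists without reads limit what can be said of loss.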
